A study of Mus musculus with 9 samples.

Results

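The 10 genes described here are predicted targets of the microRNA miR-96 that the study listed as expressed more highly in mouse hair cells (HCs) homozygous for the Dmdo mutation of Mir96 than in wild-type HCs. They are Jpt2, Morf4l2, Tmx1, Hspa2, Ppp1r11, Arpp19, Stard7, Kpnb1, Capns1 and Lamp2, and they are 10 of the 43808 genes in the count files. Further predicted targets on the same list are not described here. The members were chosen by their measured counts in these same libraries, homozygous mutant against wild-type, so values and calls on that contrast describe the choice and are no evidence for it. The weight of the account lies on the heterozygous HCs, on the spread between libraries and on the matches to the miR-96 seed.

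RNA-seq was performed on sorted HCs of postnatal day 1 (P1) mice of 3 genotypes: homozygous mutants (Mir96 Dmdo/Dmdo, mice 43, 46 and 47), heterozygotes (mice 45, 48 and 51) and wild-type mice (Mir96+/+, mice 44, 55 and 59). Every mouse also carried the Atoh1/nGFP+ transgene, which labels the nuclei of HCs, and cells positive for both GFP and the epithelial surface marker CD326 were collected. The cochlear and vestibular HCs of a sample were pooled, so the values cannot be assigned to either organ. Dmdo is a germline substitution in the seed of Mir96 on a C3HeB/FeJ background, crossed here to the reporter line and present in every cell.

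A microRNA guides a silencing complex to messenger RNAs, mostly through matches in the 3′ untranslated region (3′ UTR) to its seed, the short run of bases near its 5′ end. A bound messenger RNA is destabilised or translated less, so the loss of a seed can leave former targets at a higher level, while a changed seed can recognise other transcripts. In the inner ear miR-96 is made together with miR-182 and miR-183 from a single cluster, is expressed in HCs, and is needed for their maturation and for hearing.

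The 3 mature microRNAs of the cluster are shown because their seeds decide which letters to look for in the members. Seeds (bases 2 to 8, counted from 1 at the 5′ end) are in capitals. The sequences are from RefSeq on GRCm38.p6, all on the minus strand, with miR-96-5p at chr6:30169506-30169528, miR-182-5p at chr6:30165962-30165986 and miR-183-5p at chr6:30169711-30169732.
mmu-miR-96-5p: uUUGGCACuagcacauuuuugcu
mmu-miR-182-5p: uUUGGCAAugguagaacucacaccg
mmu-miR-183-5p: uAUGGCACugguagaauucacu
The Dmdo substitution changes the only A in the miR-96 seed, A7U in the same numbering. The seeds of miR-96 and miR-182 share bases 2 to 7 and differ at the last base.

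Matches were searched on the transcribed strand in the longest annotated 3′ UTR of each gene (GENCODE M21, GRCm38). An 8mer is GTGCCAAA, a 7mer-m8 is GTGCCAA without the final A, and a 7mer-A1 is TGCCAAA without the leading G; only the longest form is counted at a place. Each of the 10 members had exactly 1 such match, of which 4 were 8mers, 5 were 7mer-m8 and 1 was a 7mer-A1. The windows of 30 bases below, 5′ to 3′ on the transcribed strand with the match in capitals, show this difference in length between members.
Jpt2, 8mer, chr17:24943154-24943183 (-): cttcacagtagGTGCCAAAaatgtcctcag
Morf4l2, 8mer, chrX:136733249-136733278 (-): cctggttcctaGTGCCAAAggttcaactta
Kpnb1, 8mer, chr11:97161650-97161679 (-): cccagaaaactGTGCCAAAgagtttagaaa
Lamp2, 8mer, chrX:38420994-38421023 (-): attgctaggcaGTGCCAAAtgaaggcatta
Tmx1, 7mer-m8, chr12:70466358-70466387 (+): agaagatcctgGTGCCAAgcagtaagattt
Hspa2, 7mer-m8, chr12:76406529-76406558 (+): taaatgtccttGTGCCAAgtaagatctatt
Arpp19, 7mer-m8, chr9:75057585-75057614 (+): aagtagataatGTGCCAAccagaagcacaa
Stard7, 7mer-m8, chr2:127298562-127298591 (+): tattcagttctGTGCCAAggaaacagctaa
Capns1, 7mer-m8, chr7:30187206-30187235 (-): atcctgtctgtGTGCCAAgcctagcactcc
Ppp1r11, 7mer-A1, chr17:36949063-36949092 (-): tttgttctcacTGCCAAActacctgtcctg
A match is a description of letters and not a measured binding site. Since the members are predicted targets, a match in each was part of how they were chosen. The counts are per gene, so transcripts with another 3′ end, which may lack the match, were not told apart.

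**Figure D1:**
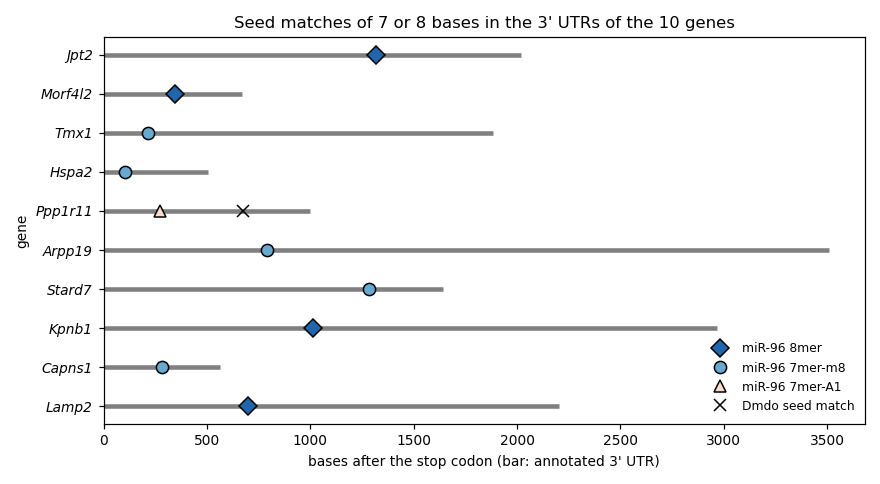
Position of each seed match of 7 or 8 bases in the annotated 3′ UTR of the 10 genes; the x axis gives bases after the stop codon and the grey bar the whole UTR. Every gene has 1 miR-96 match, and only Ppp1r11 also has a match to the Dmdo seed.

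The members' UTRs were 503 bases (Hspa2) to 3508 bases (Arpp19) long, and 6 of the 10 matches lay in the part of the UTR nearer to the stop codon. The closest to the stop codon was that of Hspa2, 105 bases after it, and the farthest that of Jpt2, 1319 bases after it. In 5 members (Jpt2, Morf4l2, Ppp1r11, Kpnb1 and Lamp2) the match ends in TGCCAAA, the form that the miR-182 seed also fits, so these letters do not separate the 2 microRNAs. Over all 12980 genes tested that have an annotated 3′ UTR, 19.7% held a miR-96 match of 7 or 8 bases, 9.83% an 8mer or 7mer-m8 and 3.08% an 8mer.

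The seed made by the Dmdo substitution was not used to choose the members. Its matches are GAGCCAAA, GAGCCAA and AGCCAAA, on the transcribed strand as before. Among the members only Ppp1r11 held one, 676 bases after its stop codon, shown here because it is the single member with a match to both seeds.
Ppp1r11, Dmdo 7mer-m8, chr17:36948658-36948687 (-): ccactgacttaGAGCCAAtgattttctcag
That is 1 of 10 members, against 19.4% of all genes tested with a UTR, whose median UTR of 1218.5 bases was shorter than the members' 1762.5.

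The libraries held 18175317 to 30932531 counts in homozygous mutants, 29470207 to 34873964 in heterozygotes and 19677015 to 28486252 in wild-type mice. The 8 HC markers (among them Pou4f3, Gfi1, Myo7a and Otof) summed to 7300 to 8520 CPM (the count of a gene scaled to the total count of its library) in homozygous mutants, 8590 to 11700 in heterozygotes and 8200 to 12400 in wild-type HCs, and 4 haemoglobin genes were at 0 in all 9 libraries. Wild-type 59 stood apart from the other 8 libraries on the first principal component and homozygous mutant 46 on the second. 3 Schwann cell markers (Mbp, Mag and Pmp22) summed to 152 CPM in homozygous mutant 46 and 72.7 CPM in homozygous mutant 47, and to at most 23.1 CPM in each of the other libraries, while the 5 mesenchyme markers summed to 709 CPM in homozygous mutant 46 and to at most 221 CPM elsewhere. Supporting cell markers overlapped, at 1900 to 2720 CPM in homozygous mutants, 2150 to 3240 in heterozygotes and 1750 to 3770 in wild-type HCs. Of these 12 markers Epyc alone had an unadjusted p under 0.05 in homozygous mutant over wild-type HCs (edgeR log2 fold change 4.31, adjusted p = 0.12), with 7.52 to 154 CPM in homozygous mutants, the highest in homozygous mutant 46, and 0.356 to 7.55 CPM in wild-type HCs. Neuronal markers also overlapped (440.0 to 508 CPM in homozygous mutants, 380.0 to 567 in heterozygotes and 416 to 518 in wild-type HCs), and those of endothelium, macrophages and melanocytes summed to at most 4.53, 7.03 and 16.5 CPM in any library. The part of these differences in the results below was not tested, apart from fits that leave libraries out. In bulk libraries, fewer cells of a type and less RNA per cell cannot be told apart. The labels give mouse numbers but no litters or sorting days, so p-values measure the spread between these mice.

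All 10 members passed the filter on low counts (20 or more reads in 2 or 3 libraries of a genotype), as did 15184 genes in all. In every member the 3 homozygous mutant libraries lay above the 3 wild-type libraries, the pattern they were listed for. Of all genes tested, 9.15% had that arrangement of CPM values. The fold of mean CPM, homozygous mutant over wild-type, ran from 1.72 for Kpnb1 to 5.26 for Jpt2. The median log2 fold change in edgeR was 0.93 over the members and -0.02 over all genes tested, and the members' median was 0.94 without wild-type 59 and homozygous mutant 46. At the thresholds of the study (FDR under 10% and fold above 1.5) edgeR called 1 member higher, Jpt2, where it called 0.237% of all genes tested higher. DESeq2, the kind of test by which the list was made, called 9 members, where it called 2.34% of all genes higher. Stard7 lay just inside the FDR threshold in DESeq2 (adjusted p = 0.0986) and Capns1 just outside (adjusted p = 0.101). Because the list was made on this contrast, these counts describe the choice of genes and support nothing further.

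**Figure D2:**
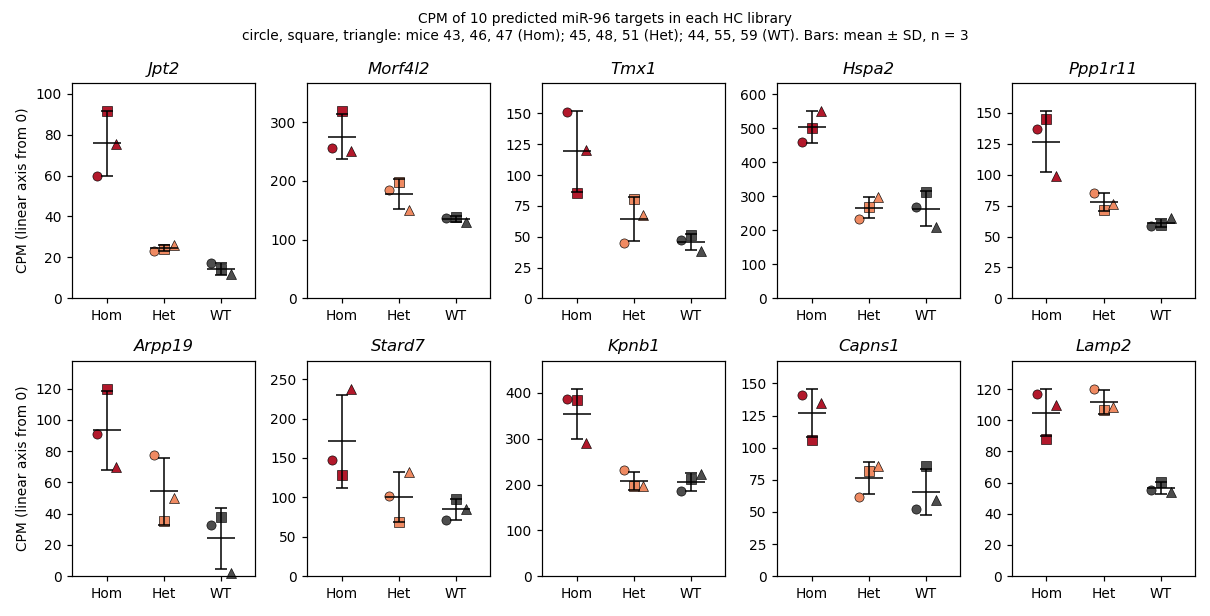
CPM of each member in each of the 9 libraries on linear axes from 0, with homozygous mutant (Hom), heterozygous (Het) and wild-type (WT) HCs from left to right and black bars for the mean ± SD (n = 3). Homozygous mutant libraries lie above wild-type ones in all 10 panels; heterozygous libraries lie near wild-type for Hspa2 and Kpnb1 and at the homozygous mutant level for Lamp2.

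Jpt2 encodes a binding protein for NAADP, a messenger that releases calcium from acidic stores, and had the largest fold of the members. Jpt2 had 60.0, 91.5 and 75.5 CPM in homozygous mutants, 23.3, 23.9 and 26.0 CPM in heterozygotes, and 17.2, 14.3 and 11.7 CPM in wild-type HCs. The 3 genotypes did not overlap, and the homozygous mutant libraries stood far above both other genotypes. Its log2 fold change over wild-type was 2.31 ± 0.45 (SE) in homozygous mutants and 0.67 ± 0.43 in heterozygotes. edgeR no longer called Jpt2 without homozygous mutant 47, without wild-type 59 and homozygous mutant 46 together, or with a term for sex transcripts (log2 fold changes over all 9 libraries left out in turn, 2.17 to 2.50). Its wild-type level of 2.97 CPM per kilobase of exon was the lowest of the members.

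Kpnb1 and Morf4l2 work in the nucleus. Kpnb1 is importin beta, the carrier that brings cargo through the nuclear pore, and had 388, 384 and 290.3 CPM in homozygous mutants, 231, 197 and 197 CPM in heterozygotes, and 185, 211 and 223 CPM in wild-type HCs. Heterozygous and wild-type libraries overlapped, and the homozygous mutant libraries lay above all 6. Morf4l2, a chromatin protein of the NuA4 histone acetyltransferase complex, had 256, 319 and 251 CPM in homozygous mutants, 185, 199 and 150.0 CPM in heterozygotes, and 137, 139 and 129 CPM in wild-type HCs. Here the 3 genotypes did not overlap, although heterozygote 51 lay close to the wild-type libraries.

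Hspa2 and Tmx1 handle protein folding. Hspa2, a chaperone of the HSP70 family best known from sperm development, had 459, 501 and 551 CPM in homozygous mutants, 233, 269 and 297 CPM in heterozygotes, and 269, 314 and 209 CPM in wild-type HCs. Heterozygous libraries fell within the wild-type range, and every homozygous mutant library was above both. Tmx1, a membrane-bound thioredoxin-like oxidoreductase of the endoplasmic reticulum, had 151, 85.8 and 120.4 CPM in homozygous mutants, 45.3, 80.3 and 67.8 CPM in heterozygotes, and 47.7, 51.4 and 38.7 CPM in wild-type HCs. Tmx1 was lowest in homozygous mutant 46 among the homozygous mutants, close to heterozygote 48, while heterozygote 45 lay inside the wild-type range.

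Ppp1r11 and Arpp19 are inhibitors of protein phosphatases. Ppp1r11, an inhibitor of protein phosphatase 1, had 137, 145 and 98.6 CPM in homozygous mutants, 85.4, 71.6 and 76.7 CPM in heterozygotes, and 58.4, 59.4 and 64.8 CPM in wild-type HCs. The genotypes did not overlap. Arpp19, which when phosphorylated by the kinase Mastl holds back protein phosphatase 2A during mitosis, had 90.7, 119.9 and 69.7 CPM in homozygous mutants, 77.3, 35.3 and 50.01 CPM in heterozygotes, and 32.8, 38.1 and 1.73 CPM in wild-type HCs. The value of wild-type 59 rests on 34 reads, where the other 8 libraries had 734 to 2521, and it decides much of the fold. The log2 fold change of Arpp19, homozygous mutant over wild-type, was 1.89 ± 0.71 (SE) with all libraries and 1.34 without wild-type 59, and heterozygous over wild-type it was 1.08 ± 0.70 and 0.54 without that library. The coefficient of variation of its CPM was 27.0% in homozygous mutants, 39.3% in heterozygotes and 81.1% in wild-type HCs.

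Lamp2, Capns1 and Stard7 belong to lysosomes, calcium-dependent proteolysis and lipid transfer. Lamp2, a glycoprotein of the lysosomal membrane that takes part in autophagy, had 117, 88.0 and 109.6 CPM in homozygous mutants, 120.2, 107 and 108 CPM in heterozygotes, and 55.2, 60.6 and 53.7 CPM in wild-type HCs. It was the only member whose heterozygous mean exceeded the homozygous mutant mean, and no wild-type library reached any library that carried Dmdo. Capns1, the small regulatory subunit of the classical calpains, had 141, 105.6 and 134 CPM in homozygous mutants, 61.8, 81.5 and 85.8 CPM in heterozygotes, and 52.0, 85.7 and 59.3 CPM in wild-type HCs. Wild-type 55 was as high as the highest heterozygote for Capns1. Stard7, which carries phosphatidylcholine to mitochondria, had 147, 128 and 238 CPM in homozygous mutants, 102, 68.3 and 132 CPM in heterozygotes, and 71.2, 98.2 and 85.0 CPM in wild-type HCs. Its homozygous mutant 47 stood well above the other 2, and homozygous mutant 46 lay below heterozygote 51.

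For 3 members an antisense or overlapping transcript is annotated on the opposite strand (Gm26810 for Capns1, Gm11583 for Kpnb1 and BC065397 for Morf4l2). The libraries were made with a directional kit, but no source used here gives whether strand was used in counting, so reads from these partners cannot be told apart from the members' own.

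**Figure D3:**
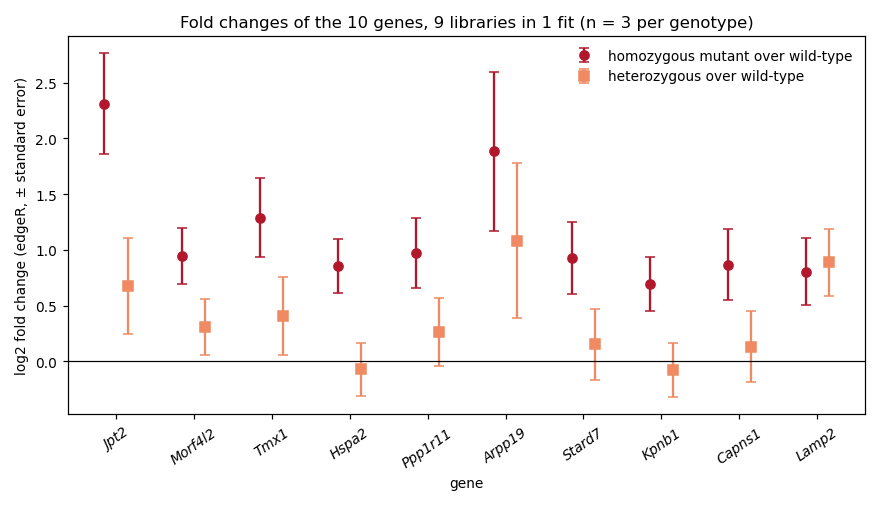
Log2 fold changes of the 10 genes over wild-type in 1 edgeR fit of 9 libraries (n = 3 per genotype), for homozygous mutants (red circles) and heterozygotes (orange squares), with standard errors. The homozygous mutant values are the ones the list was made on; the heterozygous values run from -0.08 for Kpnb1 to 1.08 for Arpp19, and only for Lamp2 is the heterozygous value the higher.

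The heterozygous HCs were compared with wild-type HCs to see how much of each member's difference was present with 1 Dmdo allele. These libraries were not used to make the list, but the wild-type ones were, so the comparisons are not independent. edgeR called 0 members and 0% of all genes tested higher in heterozygotes, with 272 genes higher at an unadjusted p under 0.05. DESeq2 called 0 members where it called 0.105% of all genes tested, and limma-voom called 0 members and 0% of all genes tested. The median log2 fold change was 0.28 over the members and -0.03 over all genes tested, and the members' median was 0.32 without wild-type 59 and homozygous mutant 46. Jpt2, Morf4l2, Ppp1r11 and Lamp2 had every heterozygous library above every wild-type library, an arrangement found in 6.78% of all genes tested. Mean CPM was higher in heterozygotes than in wild-type HCs for all 10 members, but for Hspa2 and Kpnb1 the fold of means was only 1.01, and with TMM scaling in edgeR their log2 fold changes were -0.07 ± 0.24 and -0.08 ± 0.24 (SE), so they have no settled direction.

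Lamp2 had the strongest heterozygous difference of the members relative to its error. Its log2 fold change, heterozygous over wild-type, was 0.89 ± 0.30 (SE; edgeR unadjusted p = 0.00712, adjusted p = 1), and it was between 0.84 and 0.98 in all settings tried, with adjusted p between 0.212 (DESeq2) and 1. The difference therefore failed the correction over all genes while being seen in 3 of 3 heterozygous libraries. Between homozygous mutants and heterozygotes the log2 fold change of Lamp2 was -0.09 ± 0.30 (SE), against 0.64 to 1.64 for the other 9 members.

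Homozygous mutants were also set against heterozygotes, a comparison that shares the homozygous mutant libraries with the one the list was made on. Every homozygous mutant library lay above every heterozygous library for 7 of the 10 members (all but Arpp19, Stard7 and Lamp2), an arrangement found in 6.65% of all genes tested. edgeR called 0 members and 0% of all genes tested higher at FDR under 10%, with 440 genes higher at an unadjusted p under 0.05. DESeq2 called Jpt2, Hspa2 and Kpnb1 (adjusted p = 0.0224, 0.0155 and 0.0837) where it called 0.402% of all genes higher, and limma-voom called the same 3 members (adjusted p = 0.0552, 0.0456 and 0.0767) where it called 0.645% of all genes higher. Jpt2, Morf4l2 and Ppp1r11 had all 3 genotypes apart and in order of Dmdo alleles, as did 0.329% of all genes tested. That order includes homozygous mutant above wild-type, which the choice of members set, so the share over all genes is not a like comparison. Among the 1390 genes tested with every homozygous mutant library above every wild-type library, 50 had the order.

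The place of the heterozygous HCs between the other genotypes was expressed for each member on the log2 CPM scale, with 0 at the wild-type mean and 1 at the homozygous mutant mean. The median position over the members was 0.28, and by single library it was 0.22 in heterozygote 45, 0.31 in heterozygote 48 and 0.35 in heterozygote 51. In 8 of 10 members the position was under 0.5, the midpoint. The median position of the 36 genes that edgeR called higher in homozygous mutants was 0.45. Taken on the CPM scale without logarithms the members' median was 0.18, and without wild-type 59 the log2 median was 0.25.

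The members fell along this scale in an uneven way. Kpnb1 (-0.11) and Hspa2 (-0.07) sat at the wild-type end, followed by Stard7 (0.13), Capns1 (0.16), Ppp1r11 (0.27), Tmx1 (0.29), Jpt2 (0.30) and Morf4l2 (0.32). Arpp19 (0.69, or 0.36 without wild-type 59) came next, and Lamp2 (1.12) lay at or beyond the homozygous mutant end. The difference of Lamp2 from that end was within its error (homozygous mutant over heterozygous -0.09 ± 0.30, SE). The spread over the 3 heterozygous libraries was 0.04 (SD) for Jpt2, 0.09 for Lamp2 and 0.11 for Ppp1r11, but 0.31 for Capns1, 0.36 for Tmx1 and 0.52 for Stard7. Leaving out a wild-type library also moved several positions. That of Capns1 was -0.03 without wild-type 44 and 0.31 without wild-type 55, and that of Stard7 was -0.02 and 0.22 without the same libraries. That of Hspa2 was 0.06 without wild-type 55 and -0.27 without wild-type 59, and that of Kpnb1 was -0.28 without wild-type 44 and 0.01 without wild-type 59. Within these ranges the order from Kpnb1 to Morf4l2 is not resolved, whereas the 3 libraries of Lamp2 (1.05 to 1.22) did not overlap those of any other member.

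**Figure D4:**
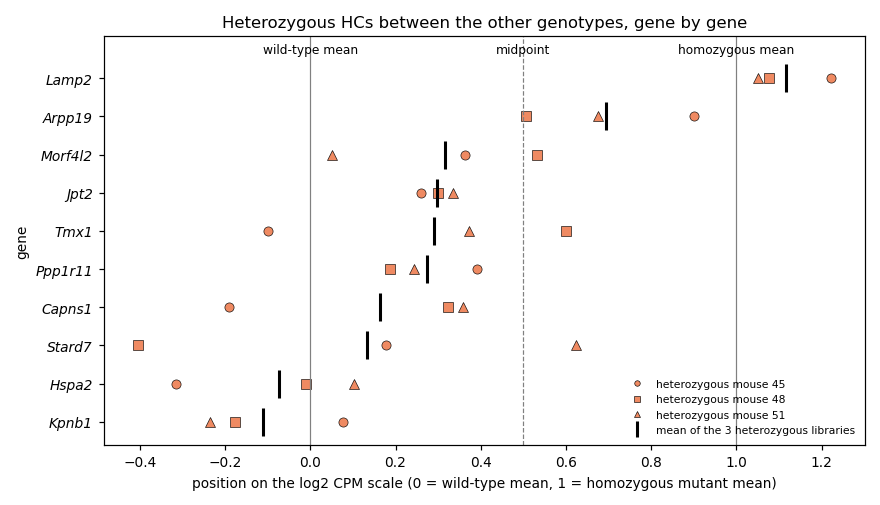
Position of heterozygous HCs on the log2 CPM scale for each gene, with 0 at the wild-type mean and 1 at the homozygous mutant mean; symbols are the 3 heterozygous mice and the black tick is their mean. Lamp2 lies beyond 1, Kpnb1 and Hspa2 lie near 0, and Stard7 and Tmx1 spread most between mice.

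The midpoint gave the contrast least tied to the choice of genes. Heterozygous minus the mean of the other genotypes is unrelated to homozygous mutant minus wild-type where groups have equal size and spread. The spread was not equal in all members. Coefficients of variation in wild-type and homozygous mutant HCs were 3.87% and 13.9% for Morf4l2, and 81.1% and 27.0% for Arpp19. The midpoint contrast is therefore not fully independent of the choice. On the log2 scale Hspa2 lay -0.50 ± 0.21 (SE) and Kpnb1 -0.43 from its midpoint (edgeR unadjusted p = 0.0272 and 0.0571), and Lamp2 lay 0.49 above it (unadjusted p = 0.0671). The adjusted p over all genes tested was 1 for every member. edgeR called 0 members and 0% of genes tested above or below the midpoint at FDR under 10% (290 genes above and 214 below at an unadjusted p under 0.05), while DESeq2 called 0 members among 0 genes above and 16 below, and limma-voom called 0 genes in either direction. The departures of these 3 members from the midpoint kept their sign in every setting tried, -0.57 to -0.39 for Hspa2, -0.49 to -0.34 for Kpnb1 and 0.42 to 0.54 for Lamp2.

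Lamp2 and Morf4l2 are on the X chromosome, and the mice were not matched for sex. Xist exceeded Ddx3y in wild-type 44, wild-type 59 and heterozygote 48, and Ddx3y exceeded Xist in the other 6 libraries, among them all 3 homozygous mutants. Within the Ddx3y libraries Lamp2 had 117, 88.0 and 109.6 CPM in homozygous mutants and 120.2 and 108 CPM in heterozygotes, against 60.6 CPM in the single wild-type library. Morf4l2 had 256, 319 and 251 CPM in those homozygous mutants and 185 and 150.0 CPM in heterozygotes, against 139 CPM in that wild-type library. With a term for these transcripts in the fit, the log2 fold change, homozygous mutant over wild-type, was 0.75 for Lamp2 and 1.03 for Morf4l2, and heterozygous over wild-type it was 0.86 and 0.34. The 536 X-linked genes tested had a median log2 fold change, homozygous mutant over wild-type, of 0.14, against -0.02 for 14629 autosomal genes. The term for sex transcripts also moved the homozygous mutant over wild-type values of autosomal members. It lowered Stard7 from 0.93 to 0.59 and Arpp19 from 1.89 to 1.35, and raised Tmx1 from 1.29 to 1.39. The median over the members went from 0.93 to 0.86. With these mice, sex and genotype cannot be fully told apart, for X-linked and autosomal members alike.

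The dispersion in the edgeR fit was lower the higher a member's level, so it does not measure each member's own spread between libraries. As a biological coefficient of variation it ran from 27.4% (Hspa2) to 45.8% (Jpt2), against a median of 53.5% over all genes tested. The coefficient of variation of CPM had a median over members of 17.6% in homozygous mutants, 13.0% in heterozygotes and 15.1% in wild-type HCs. Whether that spread was low beside all genes was not tested. Per kilobase of exon, wild-type levels ran from 2.97 CPM for Jpt2 to 99.8 CPM for Hspa2, with 6.31 CPM as the median of all genes tested. Averaged over the standardised members, heterozygous libraries lay at -0.31, -0.25 and -0.17 SD, between the homozygous mutant libraries at 1.03 to 1.09 and the wild-type libraries at -1.02 to -0.53. Wild-type 59 was the lowest library for 6 members and wild-type 44 for 3, and homozygous mutant 46 was the highest for 4.

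Across the 9 libraries the 45 pairs of members had a median Pearson r of 0.72 (0.29 to 0.94), which the shared genotype difference sets. Once each genotype's mean was removed the median was -0.09 (-0.78 to 0.93, the highest for Ppp1r11 with Kpnb1), so within a genotype a library that was high for 1 member was not generally high for the others. The 5 other genes whose log2 CPM followed the mean of the standardised members most closely over 9 libraries were Ift46 (r = 0.97), Prps1 (0.97), Utp14a (0.96), the processed pseudogene Gm10232 (0.95) and Hps4 (0.95). These points share the same libraries and the same genotype difference, and Prps1 and Utp14a are X-linked. Ift46 had 106.1 ± 1.78 CPM in homozygous mutants, 64.7 ± 1.997 CPM in heterozygotes and 56.6 ± 3.84 CPM in wild-type HCs (SD, n = 3 each).

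The relatives and partners of the members were examined from a list of 80 genes, of which 73 were tested. edgeR called 0 of the 73 in homozygous mutant against wild-type HCs, with 2 higher and 3 lower at an unadjusted p under 0.05. Of all 15184 genes tested it called 0.237% higher and 0.915% lower, with 747 higher and 1244 lower at an unadjusted p under 0.05. At such shares, 0 calls among 73 genes does not set the relatives apart from the rest. Their median log2 fold change was 0.01 beside -0.02 over all genes tested. Jpt1, the paralogue of Jpt2, had a log2 fold change of -0.06 ± 0.38 (SE), Ensa, the paralogue of Arpp19, 0.24 ± 0.26, and Lamp1, the other major lysosomal membrane glycoprotein, 0.45 ± 0.25. Hspa8, the constitutive HSP70 chaperone, gave -0.15 ± 0.26, Tmx3, another thioredoxin-related oxidoreductase, 0.52 ± 0.47, and Morf4l1, the paralogue of Morf4l2, 0.61 ± 0.87. Ppp1r2, another inhibitor of protein phosphatase 1, gave -0.48 ± 0.38, and Stard3, a cholesterol-binding relative of Stard7, -0.93 ± 0.48. The importin alpha Kpna2 and the calpain Capn1 were measured poorly (log2 fold changes 3.27 ± 2.06 and 0.06 ± 1.30), and none of these 10 relatives passed the threshold.

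The members were last set beside 16 predicted miR-96 targets that the study listed as lower in homozygous mutants, a list made on the same contrast. The other predicted targets listed as higher were not counted here, so the members' shares below cover only part of that list. edgeR called 6 of those 16 lower, where it called 0.915% of all genes tested lower, and the 4 of smallest p were Pcx, Adgrl1, Dock9 and Rimbp2, with log2 fold changes of -2.10, -1.89, -1.51 and -1.39. Their seed matches differed in type from those of the members. Both lists hold predicted targets and were separated by direction on this contrast. Whether the type of match entered the prediction was not tested. An 8mer or 7mer-m8 was present in 9 of 10 members (90.0%) and in 4 of the 16 (25.0%), while 12 of the 16 held only the 7mer-A1 form that miR-182 shares, as did 1 member. A match to the miR-182 seed was present in 6 of 10 members (60.0%) and in 15 of the 16 (93.8%), and a match to the Dmdo seed in 1 of 10 members and in 8 of the 16. The UTRs of the 16 were longer, with a median of 2483 bases against 1762.5 for the members, and longer UTRs hold more matches.

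The same split by type was taken over all genes tested with a UTR, most of which are on neither list. The median log2 fold change, homozygous mutant over wild-type, was 0.13 for the 400 genes with an 8mer, 0.06 for the 876 with a 7mer-m8, -0.07 for the 1287 with only a 7mer-A1 and -0.05 for the 10417 with none of these. The same medians for heterozygous over wild-type were 0.00, -0.01, -0.01 and -0.06. A log2 fold change above 0 in homozygous mutants was found in 56.8% of genes with an 8mer and in 47.1% of genes without a match. edgeR called 0.75% of genes with an 8mer higher and 0.75% lower, against 0.192% and 1.16% of genes without a match. Median UTR lengths in the same order of classes were 2752.5, 2417, 2388 and 983 bases, and the part of UTR length in these medians was not tested. The members were chosen to lie above these medians, so their folds cannot show whether they depend on the type of match. The 8mer members held both the lowest (Kpnb1) and the highest (Lamp2) heterozygous position.

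**Figure D5:**
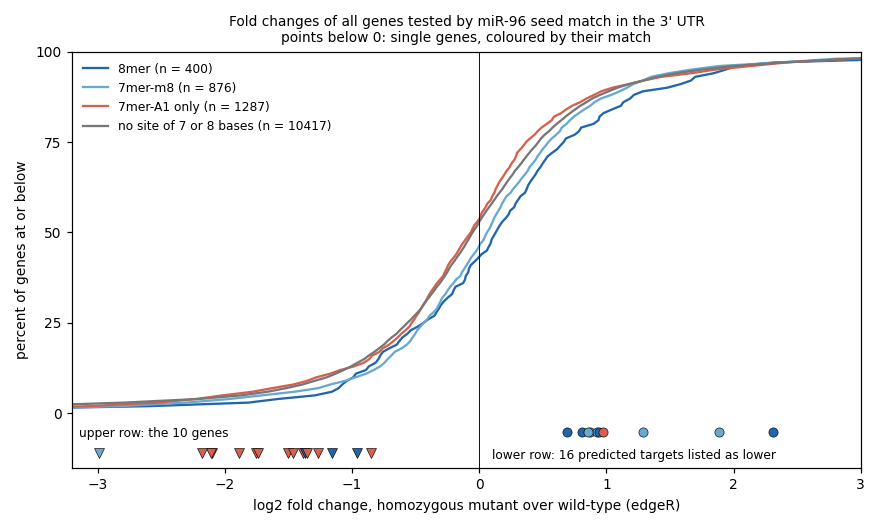
Cumulative distributions of the log2 fold change, homozygous mutant over wild-type, for all genes tested with an annotated 3′ UTR, by their longest miR-96 match; the y axis is the percent of genes at or below a value. The points below 0 percent are the 10 members (upper row) and the 16 predicted targets listed as lower (lower row), coloured by their match; the curve for 8mers lies to the right of the others around the median, and all points were placed on their lists by this same contrast.

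Targets of miR-96 with experimental support from other work formed a list of 9 genes, among them Aqp5, Celsr2, Odf2, Myrip and Ryk, of which 7 were tested. edgeR called 0 of the 7 in either direction, with 1 higher and 0 lower at an unadjusted p under 0.05, where it called 0.237% of all genes tested higher and 0.915% lower. Their median log2 fold change was -0.19, beside -0.02 over all genes tested. Above 0 were 3: Aqp5 (3.54 ± 1.68, SE), Zeb1 (1.41 ± 1.65) and Ryk (0.44 ± 0.36). Below 0 were Mitf (-0.78 ± 1.80), Celsr2 (-0.74 ± 0.41), Foxo1 (-0.63 ± 0.94) and Odf2 (-0.19 ± 0.24). Aqp5, Zeb1, Mitf and Foxo1 had low wild-type means, 0.948 to 13.5 CPM, and were measured poorly, so the median is imprecise. Myrip and Snai2 were not tested.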

How the data were processed

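HCs were sorted from P1 mice and RNA-seq libraries were prepared from total RNA of 3 mice per genotype. The authors deposited raw counts per gene for each sample; per the study's methods reads were aligned with HISAT2 2.0.4 to GRCm38 and counted with HTSeq. Low RNA input and many PCR cycles without molecular identifiers mean that reads are not independent molecules. The study reports lower RNA integrity in a wild-type and a homozygous mutant sample than in the rest. It also reports that the smallest numbers of sorted cells were in homozygous mutant samples. Samples were grouped by genotype from the labels. Replicates of a genotype differed by more than sampling noise.

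CPM was computed from the deposited counts and library totals. Genes with at least 20 reads in at least 2 of 3 libraries of a genotype (15184 of 43808) entered edgeR 4.0.16 (TMM, robust quasi-likelihood test, prior count 2, R 4.3.3), with all 9 libraries in 1 fit and Benjamini-Hochberg adjustment over all genes tested. Calls required FDR under 10% and fold above 1.5, the thresholds of the study, except for the midpoint contrast, which had no fold threshold. DESeq2 1.42.0, limma-voom 3.58.1 with quality weights, other scalings and filters, a sex transcript term and left-out libraries were alternatives. Heterozygous position is heterozygous minus wild-type over homozygous mutant minus wild-type, from mean log2 CPM.

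3′ UTRs were read from GENCODE M21 (GRCm38), as the transcript with the longest UTR; all 10 members matched, and microRNAs are from RefSeq. Named genes are the members, a relative or partner of each (not always the closest) and any relative called. Also named are the 4 predicted targets listed as lower with the smallest p and the 5 genes most like the members' mean profile. Cell type markers are mostly given as sums. 1 marker is not reported here. The members and all gene lists were chosen with earlier results of these data known.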

Additional observations from a re-analysis of the deposited data

How the results depend on the processing

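In homozygous mutant over wild-type HCs all 10 members had log2 fold changes above 0 in all 18 settings compared (0.59 to 2.50), a direction that their choice on this contrast fixes. The count of members called differed between settings, and so did the count of all genes called higher. edgeR called 1 (of 36 genes in all), RLE size factors 2 (of 44), filterByExpr 2 (of 42), limma-voom 3 (of 126), library totals 4 (of 48), no low-count filter 5 (of 169) and DESeq2 9 (of 355). The sex transcript term gave 0 members of 1 gene, and leaving out wild-type 59 and homozygous mutant 46 together gave 0 of 3. With single libraries left out it ranged from 0 (without homozygous mutant 47, of 5 genes) to 4 (without wild-type 44, of 282, and without heterozygote 45, of 59). The median log2 fold change of the members was 1.02 with library totals and 0.86 with the sex transcript term, and 0.90 to 1.00 with single libraries left out. In homozygous mutant over heterozygous HCs DESeq2 and limma-voom each called 3 members, against 0 in edgeR. The median heterozygous position was 0.18 without logarithms and 0.25 to 0.31 with single libraries left out (lowest to highest). Heterozygous over wild-type, 147 of 180 values were above 0 (-0.19 to 1.56). The cause of these differences was not tested. Site class medians without wild-type 59 and homozygous mutant 46, a check chosen after seeing the data, were 0.19 (8mer) and 0.06 (7mer-m8). The median over all genes tested in that fit was -0.003. Medians of the 7mer-A1 class and of genes without a match are not given for that fit, so no difference between all classes can be read from it. The study describes the wild-type mice as littermate controls, but the labels give no litters. Mice could therefore not be paired by litter, and litter was not in the fits. With 3 mice per genotype, log2 fold changes of the members had standard errors of 0.24 to 0.71, so a heterozygous difference of the median size (0.28) could not be resolved in any single member.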
